A study of Mus musculus with 2 samples.

Results

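The proteasome subunit genes described here are all genes of the count matrix whose symbol is Psma, Psmb, Psmc, Psmd, Psme, Psmf or Psmg followed by a number, 48 of 16789 gene symbols. They were followed in single NK cells (natural killer cells, lymphocytes of the innate immune system), sorted as lineage-negative, NK1.1+ and CD49b+. The mice were C57BL/6, 12 weeks of age, and were fed ad libitum or put through cycles of fasting after MC38 cells, a mouse colon carcinoma line, had been injected under the skin. Cells of each population carried 1 hashtag antibody, and all were run together in 1 droplet lane. The tag list names 10 populations, which are ad libitum, fasted and refed cells from spleen, bone marrow and tumour, and a naive spleen population. The sources do not say what naive stands for (with or without a tumour), when in the fasting cycle cells were taken, or how many mice gave a population. Each population is therefore 1 sample. Differences between populations have no replicates behind them, so no p-value is given, and every interval covers counting error only, not differences between mice.

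The proteasome is the barrel-shaped protease that degrades ubiquitin-tagged proteins in the cytosol and nucleus. Its 20S core is built of rings of alpha subunits (Psma) and beta subunits (Psmb), and the beta subunits Psmb5, Psmb6 and Psmb7 carry the proteolytic sites. In lymphocytes and in cells exposed to interferon these are replaced in part by Psmb8, Psmb9 and Psmb10, which gives the immunoproteasome, known for making peptides for MHC class I. The 19S cap, made of the ATPases Psmc and the non-ATPases Psmd, binds and unfolds tagged proteins. Psme1 and Psme2 form the interferon-induced PA28 activator, Psme3 and Psme4 are nuclear activators, Psmf1 is the inhibitor PI31, and Psmg1 to Psmg4 help to assemble the core.

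The 48 genes comprise 8 alpha genes, 4 genes of non-catalytic beta subunits, 3 constitutive catalytic genes, 3 immunoproteasome genes, Psmb11 of the thymus form, 6 cap ATPases, 11 cap non-ATPases, 3 cap assembly chaperones (Psmd5, Psmd9 and Psmd10), 4 activators, Psmf1 and 4 core assembly chaperones. A gene was called measured when its level averaged at least 20 CPM (counts scaled to a total of 1000000 UMIs, the unique molecular identifiers that mark single transcripts) over the 10 populations. That held for 46 of the 48 members and for 5120 genes in all. The other two were Psma8, a testis form of an alpha subunit, and Psmb11. Psmb11 had 1 UMI, in refed spleen. Psma8 had 6 UMIs in all, 3 in ad libitum bone marrow and 3 in a single cell of fasted tumour. A count of 0 allowed up to 0.346 CPM in ad libitum spleen, the deepest population, and up to 5.49 CPM in ad libitum tumour, the shallowest.

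In the GENCODE M21 annotation of the build GRCm38 (mm10), all 48 members were found, on 16 chromosomes. Psmb8 lies on chromosome 17 from 34197721 to 34201454 on the plus strand and Psmb9 on the same chromosome from 34181987 to 34187764 on the minus strand, both in the MHC region. Exons of Psmb9 overlap those of Tap1, the peptide transporter gene, on the other strand. Psmb10 lies on chromosome 8 from 105935735 to 105938444, Psmb5 on chromosome 14 from 54614119 to 54618022, Psmb6 on chromosome 11 from 70525367 to 70527858, and Psmb7 on chromosome 2 from 38588036 to 38644087. Psme1 (55578123 to 55581529) and Psme2 (55587441 to 55591113) are neighbours on chromosome 14. Exons of 13 members overlap exons of another gene, among them Psmb5, Psmb7, Psmb8, Psmb9, Psma4 and Psme1, and no source used here says whether counting used strand. Psme2b, a near-identical copy of Psme2, has its own column, so the split of reads between both is uncertain.

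Upstream sequences are shown for 4 members named in the feeding results below, and they end where the first annotated exon begins. None of the motifs searched was found in those of Psmb10, Psme1 and Psme2, which are also named below but not shown. Psmb5 and Psmb6 are constitutive catalytic genes, Psmg1 had the lowest log2 ratio of all members in fasted bone marrow, and Psme4 ran opposite to most members there. The sequences are from the RefSeq promoter table of GRCm38.p6, on each gene's strand, 5′ to 3′, and capitals mark matches to the motifs named after them.
Psmb5, chr14:54618023-54618245, minus strand: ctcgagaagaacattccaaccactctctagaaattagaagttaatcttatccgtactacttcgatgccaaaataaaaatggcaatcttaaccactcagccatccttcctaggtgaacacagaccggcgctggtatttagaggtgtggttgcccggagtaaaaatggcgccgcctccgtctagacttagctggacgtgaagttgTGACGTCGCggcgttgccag
Psmb6, chr11:70525107-70525356, plus strand: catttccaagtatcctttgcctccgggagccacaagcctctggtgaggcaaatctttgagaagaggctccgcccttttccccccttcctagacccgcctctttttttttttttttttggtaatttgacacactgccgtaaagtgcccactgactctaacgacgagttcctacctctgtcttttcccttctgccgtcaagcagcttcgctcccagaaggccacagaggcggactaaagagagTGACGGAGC
Psmg1, chr16:95990961-95991210, minus strand: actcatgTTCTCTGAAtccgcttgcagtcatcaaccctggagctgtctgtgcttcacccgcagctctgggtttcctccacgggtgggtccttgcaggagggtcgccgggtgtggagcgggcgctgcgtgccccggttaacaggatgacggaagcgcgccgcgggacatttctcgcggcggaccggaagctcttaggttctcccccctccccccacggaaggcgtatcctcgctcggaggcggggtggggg
Psme4, chr11:30771525-30771725, plus strand: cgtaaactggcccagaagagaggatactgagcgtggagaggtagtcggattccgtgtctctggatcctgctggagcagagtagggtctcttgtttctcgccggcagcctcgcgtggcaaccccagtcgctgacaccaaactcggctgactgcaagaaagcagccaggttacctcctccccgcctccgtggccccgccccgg
The motifs were searched on both strands in the 250 bases before the start site of 40 members in that table and of 27025 genes in all. TGACNNNGC, the core of the antioxidant response element bound by NFE2L1 and NFE2L2, which drive proteasome genes when the proteasome is blocked, was present in 5 of 40 members (12.5%; Psmb5, Psmb6, Psmc6, Psmd9 and Psmd12) and in 11.5% of all genes. TTCNNNGAA, the gamma-activated site bound by STAT factors, was present in Psmb8 and Psmg1 (5.0% of members, 8.13% of all genes). The core of the interferon-stimulated response element, GAAA and again GAAA after a gap of 2 bases, was present in Psmb3, Psmd4 and Psmd9 (7.5% of members, 3.46% of all genes). A match is a description of the letters and does not show binding.

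Without 297 cells of clusters resembling T cells (162) or monocytes and macrophages (135), 7182 singlet cells remained, from 43 in ad libitum tumour to 1772 in ad libitum spleen. Summed UMIs per population ranged from 546428 to 8668093, of which 3809 (fasted bone marrow) to 62205 (ad libitum spleen) were from proteasome genes. Median UMIs per cell were 3446 in fasted against 4197 in ad libitum spleen, 4327.5 against 6846 in bone marrow and 5295.5 against 3863 in tumour. The 10 NK markers were detected in every population, at a sum of 10783 to 27179 CPM. The 10 T cell markers summed to 254 to 391 CPM (2 to 6 of them at 0), the 5 B cell markers to at most 11.2 CPM (2 to 5 at 0), the 10 neutrophil markers to 10.8 to 47.5 CPM (0 to 7 at 0) and the 6 erythroid markers to at most 51.0 CPM (1 to 6 at 0). The 12 monocyte markers summed to 102 CPM in ad libitum tumour (6 at 0) and 5.81 to 33.9 CPM elsewhere (0 to 9 at 0), the 5 epithelial markers to 20.1 CPM there (2 at 0) and 0.555 to 9.97 CPM elsewhere (1 to 4 at 0). The part of these cells in the results was not tested. In ad libitum tumour, 12 of the 43 cells held 414051 of its 546428 UMIs, so its values rest largely on those cells.

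In all 3 tissues a smaller share of UMIs came from proteasome genes in the fasted population than in the ad libitum population. The 48 genes summed to 7176 CPM in ad libitum spleen, 6231 in fasted spleen and 6992 in refed spleen, with 6901 in the naive population. Fasted spleen was the lowest of the 4 spleen populations, and its interval (6163 to 6299) did not overlap the others. In bone marrow the sums were 8328 CPM in ad libitum, 6288 in fasted and 8098 in refed cells, and in tumour 7933, 7277 and 8426. Proteasome genes thus took 0.623% of all UMIs in fasted spleen and 0.843% in refed tumour, the ends of the range.

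**Figure D1:**
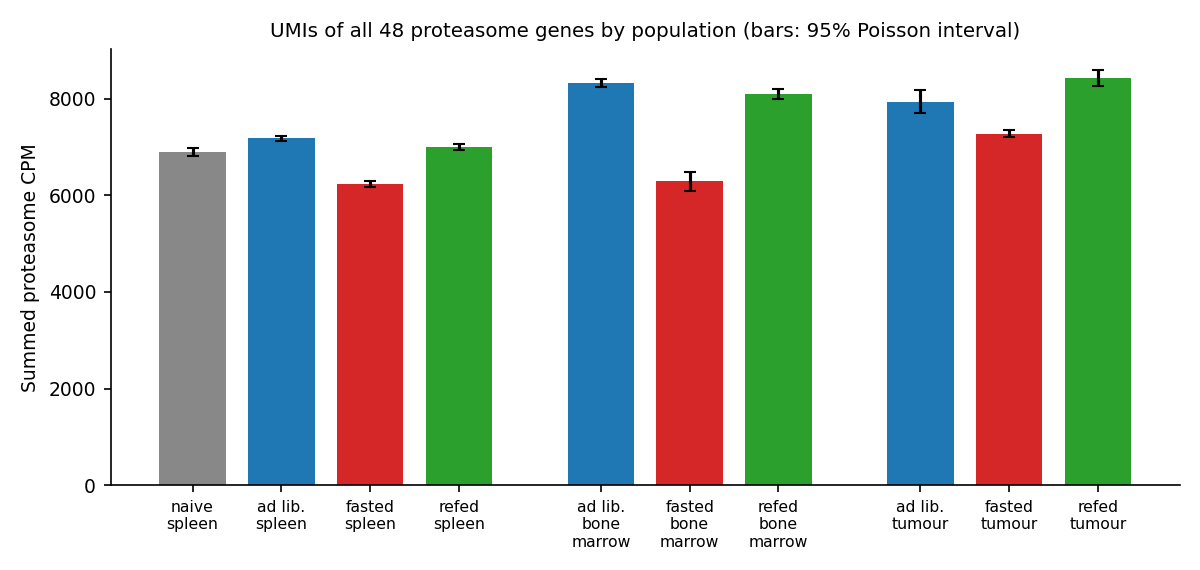
Summed level of the 48 proteasome genes (CPM, vertical axis) in the 10 populations, coloured by feeding state, with 95% Poisson intervals as error bars. The fasted population is the lowest in each tissue, at 6231 (spleen), 6288 (bone marrow) and 7277 CPM (tumour).

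The summed log2 ratio of fasted against ad libitum cells was -0.20 for spleen (95% interval -0.22 to -0.18), -0.41 for bone marrow (-0.45 to -0.36) and -0.12 for tumour (-0.17 to -0.08). In spleen 42 of 46 measured members were lower in fasted cells, against 52.0% of all 5120 genes, and 7 were lower by more than 20% (on the scale of CPM + 5, as for each log2 ratio of a gene), against 6.37%. In bone marrow 41 were lower, against 51.3%, and 30 by more than 20%, against 25.6%. In tumour 31 were lower, against 46.2%, and 11 by more than 20%, against 17.6%. The median log2 ratio of the members was -0.17, -0.43 and -0.20 in spleen, bone marrow and tumour, where that of all measured genes was -0.01, -0.01 and 0.04. These 3 comparisons share no cells. In all of them 27 of the 46 members (58.7%) were lower and 0 were higher in fasted cells, where 24.0% of all genes were lower and 24.3% higher in all 3.

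The size of the difference depended on how cells were weighted. It moved most in bone marrow, over the alternatives from -0.48 to -0.15, and turned in tumour. When each bin of UMIs per cell counted alike, the summed ratio of fasted against ad libitum cells was -0.15 for spleen, -0.15 for bone marrow and 0.08 for tumour. It was 0.07 in tumour when each cell counted alike and 0.03 when clusters 10 and 11 were left out, so the direction in tumour was not stable. In bone marrow it was -0.25 without those clusters. Counts of members lower in fasted cells, above and below, were not recomputed with these weights or without these clusters. Whether the tumour counts hold there is thus not known.

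The alpha genes, which form the outer rings of the core and gate its entry, were lower in fasted cells in 7 of 7 measured cases in each tissue. Of all genes 52.0%, 51.3% and 46.2% were lower in fasted spleen, bone marrow and tumour. The median log2 ratio of the alpha genes was -0.18 for spleen, -0.43 for bone marrow and -0.21 for tumour. Psma4 differed most, in bone marrow. Its level was 260 CPM in ad libitum, 129 in fasted and 258 in refed bone marrow, 191, 161 and 180 in spleen and 227, 206 and 275 in tumour, with 183 in the naive spleen. Fasted bone marrow was thus the lowest of the 10 populations (78 UMIs). The log2 ratio was -0.99 (-1.36 to -0.68), and -0.35 with equal weight per depth bin.

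Of the non-catalytic beta genes, Psmb2, Psmb3 and Psmb4 were lower in fasted spleen and bone marrow, and Psmb1 was nearly level. Psmb1 ranged from 392 to 439 CPM over the 10 populations, the narrowest range of all measured members (1.12-fold). Psmb2 was at 169, 132 and 160 CPM in ad libitum, fasted and refed spleen, 232, 154 and 220 in bone marrow and 260, 185 and 265 in tumour, and at 153 in naive spleen. Its fasted value was the lowest in each tissue. In tumour its log2 ratio of fasted against ad libitum cells was -0.48 (-0.74 to -0.22), and -0.25 without clusters 10 and 11.

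The constitutive catalytic genes were lower in fasted cells in 3 of 3 cases in each tissue, against 52.0%, 51.3% and 46.2% of all genes in spleen, bone marrow and tumour. Psmb5, which gives the chymotrypsin-like activity, was at 201 CPM in ad libitum, 149 in fasted, 193 in refed and 190 in naive spleen. Ad libitum, fasted and refed cells had 265, 168 and 261 CPM in bone marrow and 232, 190 and 243 in tumour. The fasted value was the lowest of each tissue, and its interval did not overlap the others in spleen and bone marrow. In spleen the log2 ratio was -0.42 (-0.56 to -0.31). Psmb6, of the caspase-like activity, was at 191, 148 and 179 CPM in spleen (176 in naive), 245, 182 and 229 in bone marrow and 227, 188 and 264 in tumour. Psmb7, of the trypsin-like activity, varied less by feeding in spleen and bone marrow. It was at 98.9, 94.1 and 95.1 CPM in spleen (91.9 in naive), 124, 101 and 114 in bone marrow and 143, 118 and 134 in tumour.

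The immunoproteasome genes gave more UMIs than their constitutive counterparts in every population, in counts at transcript 3′ ends that are not divided by length. Psmb8 was at 689, 590 and 672 CPM in ad libitum, fasted and refed spleen and at 656 in the naive population. In bone marrow it was at 735, 636 and 707 CPM and in tumour at 871, 752 and 814. Its fasted value was the lowest of each tissue. Psmb9 was at 251, 234 and 251 CPM in spleen (251 in naive), 301, 243 and 281 in bone marrow and 311, 258 and 299 in tumour. Psmb10 was at 302, 246 and 289 CPM in spleen (285 in naive) and 269, 236 and 274 in bone marrow, but at 209, 255 and 279 in tumour, where the ad libitum cells were the lowest of the 10 populations.

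**Figure D2:**
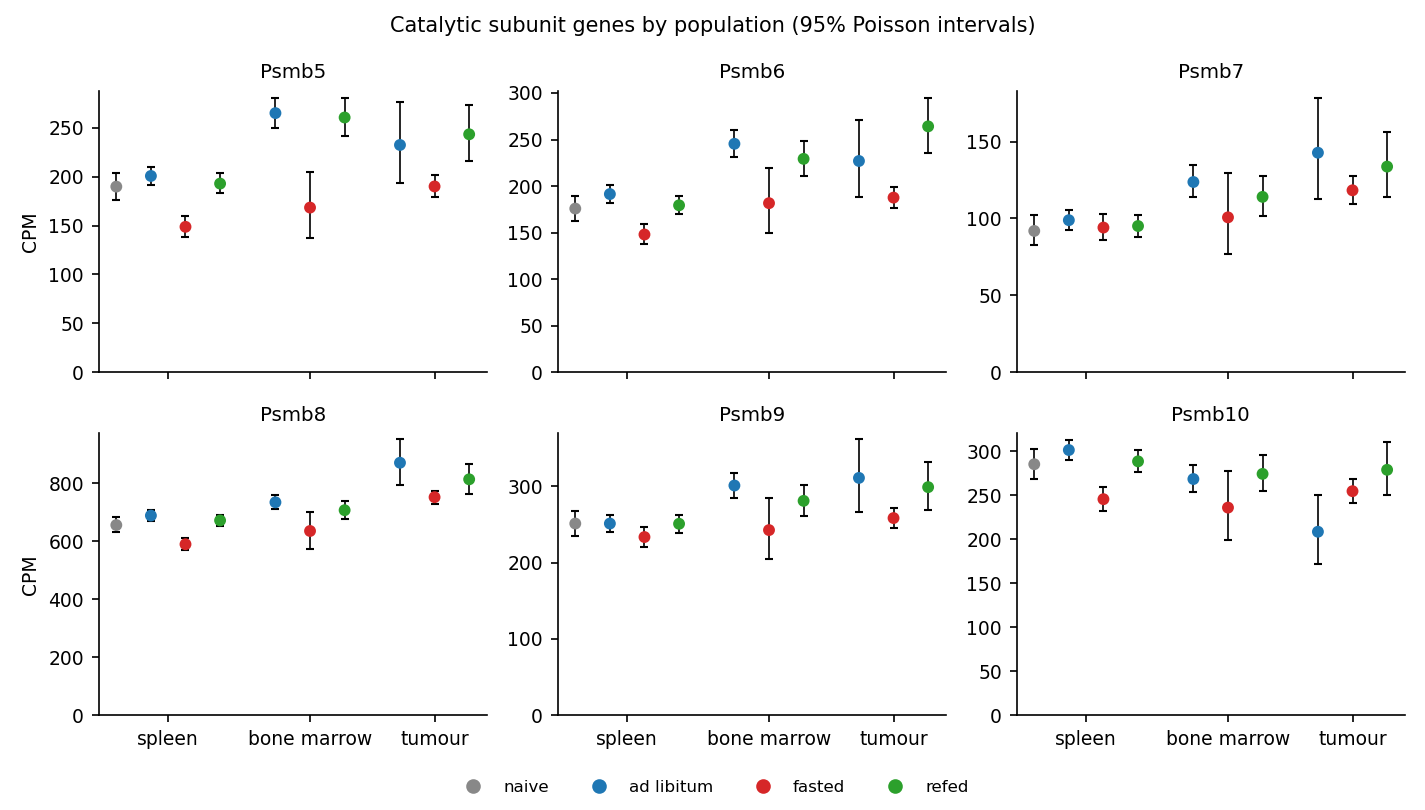
Levels (CPM, vertical axes from 0) of the 6 catalytic subunit genes in the 10 populations, grouped by tissue and coloured by feeding state, with 95% Poisson intervals. Psmb5 is lowest in the fasted population of each tissue, whereas Psmb10 in tumour is lowest in ad libitum cells, at 209 CPM.

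Among the cap ATPases, which unfold substrates, 6 of 6 were lower in fasted spleen, 5 of 6 in fasted bone marrow and 3 of 6 in fasted tumour, where 52.0%, 51.3% and 46.2% of all genes were lower. The tumour count is thus near the share of all genes. Psmc5 had the lowest log2 ratio of them in spleen, -0.38 (-0.58 to -0.22), at 96.1 CPM in ad libitum and 72.9 in fasted cells. Psmc6 was the exception in bone marrow, at 97.6 CPM in ad libitum and 101 in fasted cells. Of the 11 cap non-ATPases, 11 were lower in fasted spleen and 11 in fasted bone marrow, and 8 in fasted tumour. Psmd3, a scaffold subunit of the lid, was at 68.9 CPM in ad libitum, 28.1 in fasted (17 UMIs) and 69.6 in refed bone marrow. That is the lowest of the 10 populations, and the log2 ratio of fasted against ad libitum cells was -1.16 (-2.09 to -0.59), with -0.59 at equal weight per depth bin. Psmd6, another lid subunit, was at 106 CPM in ad libitum and 78.0 in fasted tumour, with a log2 ratio of -0.42 (-0.84 to -0.02) that turned to 0.35 in cells thinned to 1500 UMIs.

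Psmd4, the ubiquitin receptor of the cap, was at 174, 170 and 170 CPM in ad libitum, fasted and refed spleen and 160 in naive spleen. It was at 164, 121 and 151 CPM in bone marrow and 108, 154 and 155 in tumour. The log2 ratio of fasted against ad libitum cells was -0.43 (-0.81 to -0.09) in bone marrow and 0.49 (0.13 to 0.92) in tumour, where the ad libitum value rests on 59 UMIs. The cap chaperones Psmd5, Psmd9 and Psmd10 were not lower as a set, with 2 of 3 lower in fasted spleen and 1 of 3 in fasted bone marrow and tumour. Of all genes 52.0%, 51.3% and 46.2% were lower there, and with 3 genes these counts are near those shares.

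**Figure D3:**
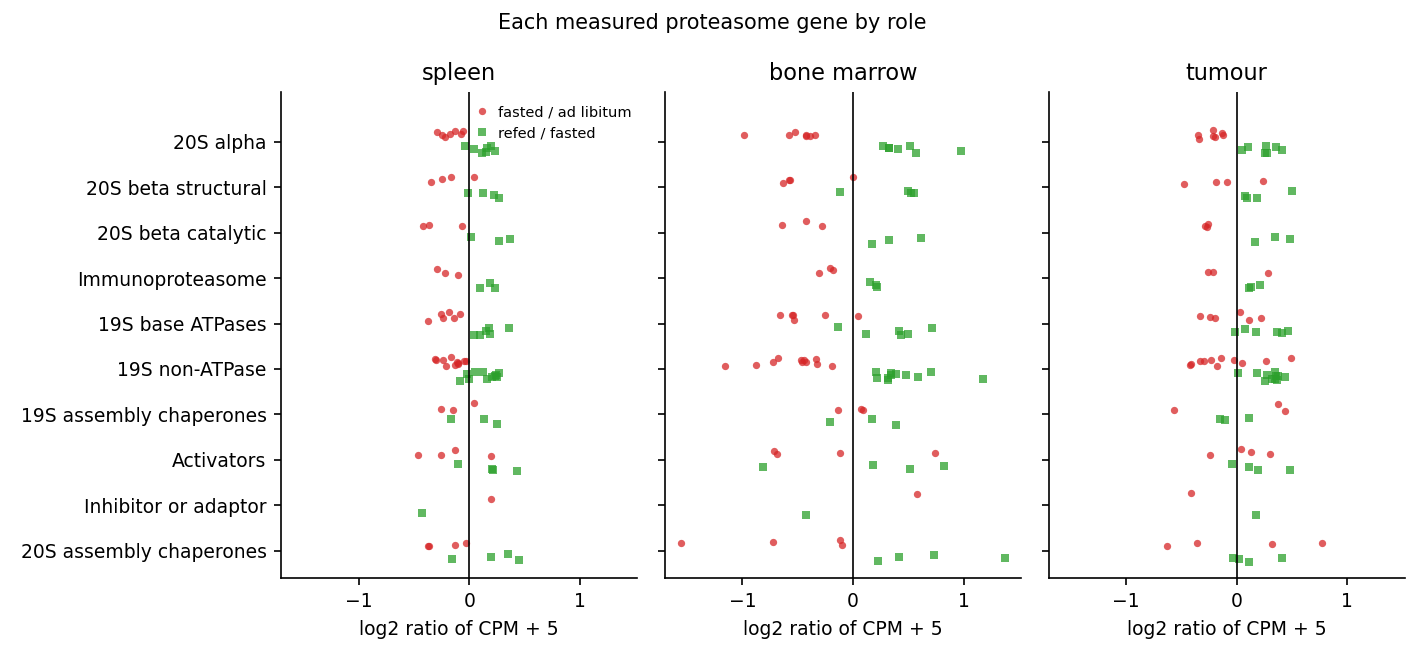
Log2 ratio of CPM + 5 (horizontal axis) of each measured member by role in spleen, bone marrow and tumour, for fasted against ad libitum cells (circles) and refed against fasted cells (squares). The fasted population enters both ratios, so they are not independent. The 7 alpha genes lie below 0 in fasted cells of each tissue, and Psme4 in bone marrow lies at 0.74.

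The activators did not move as one. Psme1 was at 529, 442 and 513 CPM in ad libitum, fasted and refed spleen (478 in naive), 568, 522 and 594 in bone marrow and 613, 631 and 611 in tumour. Psme2 was at 263, 189 and 257 CPM in spleen (242 in naive), 307, 185 and 331 in bone marrow and 291, 320 and 366 in tumour. Both subunits of PA28 were thus lower in fasted than ad libitum cells of spleen and bone marrow and not of tumour. For Psme1 in bone marrow the intervals overlapped, at 466 to 583 CPM in fasted and 546 to 590 in ad libitum cells. In tumour those of fasted and ad libitum cells overlapped for both genes. In spleen Psme2 had the lowest log2 ratio of all members, -0.46 (-0.58 to -0.37). Psme3, the nuclear activator PA28 gamma, was at 32.4, 29.2 and 34.4 CPM in spleen (31.5 in naive), 53.5, 31.4 and 47.2 in bone marrow and 31.1, 39.6 and 43.2 in tumour.

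Psme4, the activator PA200, was higher in fasted bone marrow, at 22.7 CPM in ad libitum, 41.3 in fasted (25 UMIs) and 21.3 in refed cells. Its log2 ratio of fasted against ad libitum cells was 0.74 (0.17 to 1.503), between 0.27 with equal weight per cluster and 1.32 with equal weight per depth bin. It ranged from 19.4 to 29.1 CPM in the other populations. Psmf1 was at 19.04, 22.5 and 15.4 CPM in ad libitum, fasted and refed spleen (15.6 in naive), 18.3, 29.7 and 20.9 in bone marrow and 29.3, 20.8 and 24.1 in tumour. Its fasted value was the highest in spleen and bone marrow and the lowest in tumour. The intervals of its log2 ratio of fasted against ad libitum cells all held 0. They were -0.11 to 0.59 in spleen, -0.12 to 1.45 in bone marrow (18 UMIs in fasted cells) and -1.25 to 0.36 in tumour (16 UMIs in ad libitum cells).

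The core assembly chaperones were lower in fasted cells in 4 of 4 cases in spleen and bone marrow and in 2 of 4 in tumour. Of all genes 52.0%, 51.3% and 46.2% were lower in these tissues, so the tumour count is near that share. Psmg1 was at 38.8 CPM in ad libitum, 9.91 in fasted (6 UMIs) and 33.6 in refed bone marrow, at 16.7, 14.8 and 22.1 in spleen (18.3 in naive) and at 40.3, 24.3 and 26.6 in tumour. Fasted bone marrow was the lowest of the 10 populations. Its log2 ratio there was -1.55 (-3.43 to -0.82), and -0.97 with a pseudocount of 20 CPM. In tumour the ratio of fasted against ad libitum cells was -0.63 (-1.39 to -0.01), and it turned to 0.15 with the same weight per cell.

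Refed cells had a larger share of UMIs from proteasome genes than fasted cells in each tissue. The summed log2 ratio of refed against fasted cells reached 0.17 (0.15 to 0.19) for spleen, 0.36 (0.32 to 0.42) for bone marrow and 0.21 (0.18 to 0.24) in tumour. It was positive under every alternative tried, from 0.12 to 0.24 in spleen, from 0.21 to 0.48 in bone marrow and from 0.12 to 0.26 in tumour. Measured members higher in refed cells were 37 of 46 in spleen, against 46.2% of all genes, 41 in bone marrow, against 47.5%, and 41 in tumour, against 50.4%. By more than 25% they were 5 (6.99% of all genes), 28 (22.9%) and 16 (15.6%). These comparisons share the fasted populations with those above, so an opposite sign follows in part from that.

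By gene, the highest log2 ratios of refed against fasted spleen were those of Psmg1 (0.45, 0.17 to 0.99), Psme2 (0.43, 0.33 to 0.55) and Psmb5 (0.36, 0.25 to 0.50), and the lowest was that of Psmf1 (-0.43, -0.93 to -0.16). In bone marrow they were those of Psmg1 (1.37, 0.58 to 3.25), Psmd3 (1.17, 0.59 to 2.12) and Psma4 (0.98, 0.66 to 1.36), and Psme4 was lowest (-0.82, -1.66 to -0.21). With equal weight per depth bin Psma4 was at 0.30. In tumour Psmb2 (0.50, 0.33 to 0.70), Psmb6 (0.48, 0.31 to 0.68) and Psmc6 (0.47, 0.22 to 0.74) were highest. Psmc6, an ATPase of the cap, turned to -0.44 and Psmb6 was at 0.09 in cells thinned to 1500 UMIs.

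The share of immunoproteasome genes among the UMIs of the 6 catalytic genes needs no scaling between populations. It was 71.7% in ad libitum, 73.2% in fasted, 72.2% in refed and 72.3% in naive spleen. The ad libitum, fasted and refed values were 67.3%, 71.2% and 67.7% in bone marrow and 69.8%, 71.8% and 68.5% in tumour. The fasted population had the highest share of each tissue. It differed from the ad libitum population by 1.57 percentage points in spleen (0.33 to 2.80) and 3.91 in bone marrow (0.76 to 6.95), and by 2.06 in tumour, with an interval of -0.80 to 5.01 that holds 0 and a value of -6.97 with equal weight per cluster (2 clusters). In spleen the difference stayed between 0.64 and 2.29 points under every alternative tried. In bone marrow it turned to -3.21 points in cells thinned to 1500 UMIs, where 100 fasted cells were deep enough. Within clusters with at least 20 cells of both populations the direction was mixed. The share was lower in fasted spleen in clusters 4 (72.2% against 73.2%), 5 (69.6% against 70.2%) and 6 (62.4% against 71.9%). It was higher there in clusters 1, 2, 3, 7 and 9. In fasted bone marrow it was higher in clusters 2 and 6 and lower in cluster 7 (67.0% against 67.5%).

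Refed cells had a lower share than fasted cells, with differences of -1.07 points for spleen (-2.35 to 0.22), -3.55 for bone marrow (-6.71 to -0.27) and -3.38 for tumour (-5.46 to -1.34). The spleen difference turned to 0.358 points with the same weight per cell, and the bone marrow and tumour differences turned to 3.95 and 0.17 points in thinned cells. Without clusters 10 and 11 the bone marrow difference was 0.0023 points. Ad libitum bone marrow differed from ad libitum spleen by -4.37 points (-5.61 to -3.15), and by -1.96 without clusters 10 and 11. Refed bone marrow differed from refed spleen by -4.51 points (-6.07 to -2.97), and by -0.355 without those clusters.

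Each immunoproteasome gene was also set against the constitutive gene whose place it takes. Psmb8 made up 77.4% of Psmb8 plus Psmb5 in ad libitum and 79.9% in fasted spleen, 73.5% and 79.1% in bone marrow and 78.9% and 79.8% in tumour. Psmb9 made up 56.8% of Psmb9 plus Psmb6 in ad libitum and 61.2% in fasted spleen, 55.1% and 57.2% in bone marrow and 57.8% and 57.9% in tumour. Psmb10 went the other way in spleen, with 75.3% of Psmb10 plus Psmb7 in ad libitum and 72.3% in fasted cells (intervals 73.8% to 76.7% and 70.2% to 74.4%). In tumour Psmb10 made up 59.4% in ad libitum (52.1% to 66.4%), 68.3% in fasted and 67.6% in refed cells. In ad libitum tumour the highest cell of each gene gave 28.2% of the 78 Psmb7 UMIs and 14.0% of the 114 Psmb10 UMIs. In bone marrow Psmb10 made up 68.5%, 70.1% and 70.6% in ad libitum, fasted and refed cells. All values of both tissues were below the 72.3% to 75.6% of the 4 spleen populations, so this was not particular to tumour.

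**Figure D4:**
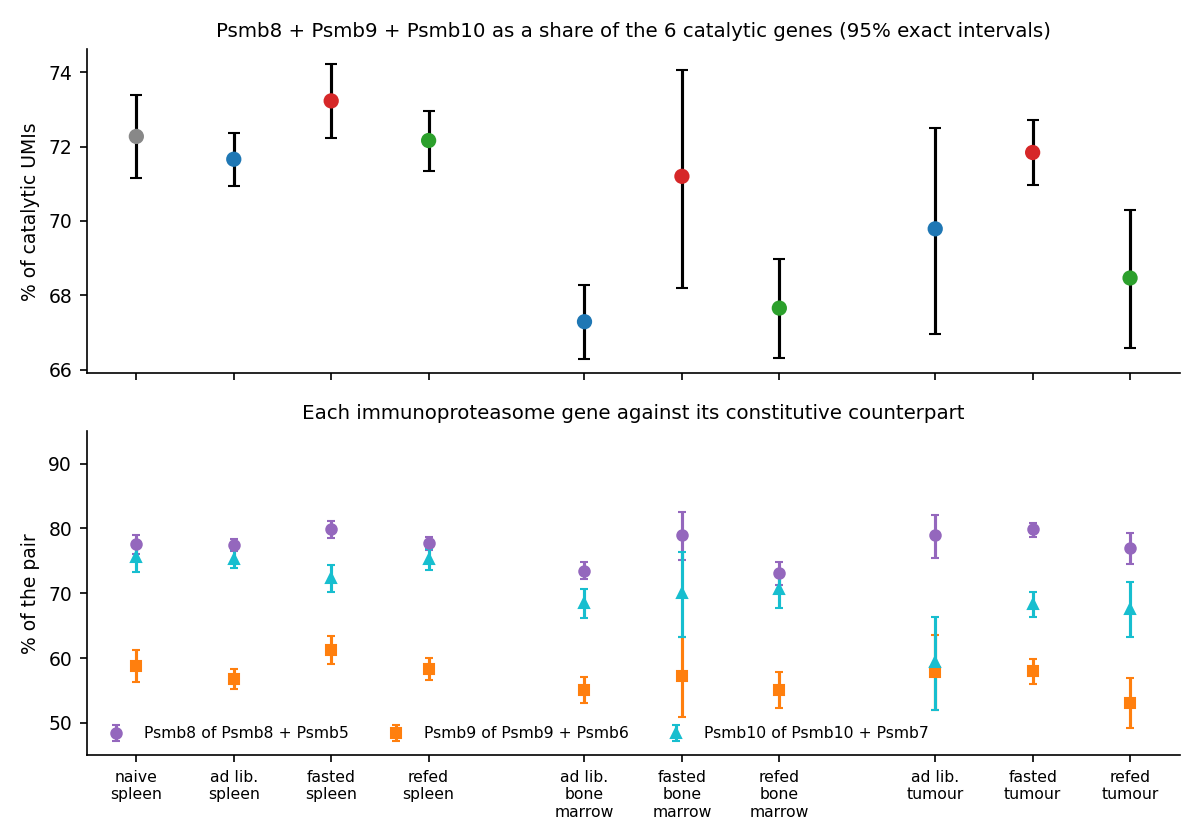
Upper panel: Psmb8, Psmb9 and Psmb10 as a percentage of the UMIs of the 6 catalytic genes in each population (axis not from 0), with exact 95% intervals; lower panel: each gene as a percentage of its pair. The fasted population is highest of each tissue in the upper panel, from 71.2% in bone marrow to 73.2% in spleen.

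The share of cells with a UMI was compared after each cell was thinned to 1500 UMIs. Psmb8 was seen in 62.9% of 1661 ad libitum and 56.4% of 1261 fasted spleen cells, and in 89.2% and 81.0% of cells before thinning. In bone marrow it was seen in 64.3% of 479 ad libitum and 51.0% of 100 fasted cells after thinning. In tumour it was seen in 70.0% of 30 ad libitum cells (interval 50.6% to 85.3%) and 60.7% of 712 fasted cells. Psmb5 was seen in 25.9% of ad libitum and 19.98% of fasted spleen cells. No cell type that lacks these genes was at hand to measure free RNA.

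Between tissues, ad libitum bone marrow had a higher summed level than ad libitum spleen (log2 ratio 0.21, 0.20 to 0.23), and so had refed bone marrow (0.21, 0.19 to 0.24), whereas fasted bone marrow did not differ beyond counting error (0.01, -0.04 to 0.06). Measured members higher in bone marrow were 40 (42.9% of all genes) in ad libitum, 24 (44.3%) in fasted and 42 (41.9%) in refed cells. By more than 25% they were 16 (17.1%), 4 (14.3%) and 17 (15.3%). Of ad libitum cells, 18.0% in bone marrow and 1.24% in spleen lay in clusters 10 and 11, which had the most UMIs per cell. Without these the ratio was 0.04, and with equal weight per depth bin -0.02. For refed cells those values were 0.06 and 0.06. The part of cell make-up in the difference was not tested further.

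All 4 core assembly chaperones were higher in ad libitum bone marrow than in spleen, 2 of them by more than 25%, and in fasted bone marrow 2 of 4 were higher. Of all genes 42.9% were higher in ad libitum cells (17.1% by more than 25%) and 44.3% in fasted cells. The fasted count is thus near that share. In ad libitum bone marrow against spleen the highest log2 ratios were those of Psmg1 (1.01, 0.89 to 1.54), Psmg2 (0.72, 0.54 to 1.17) and Psme3 (0.64, 0.47 to 0.98), and the lowest were those of Psmd10 (-0.33, -0.60 to -0.12) and Psmb10 (-0.16, -0.27 to -0.07). With equal weight per depth bin Psmg1 was at 0.40, Psmg2 at 0.35 and Psmd10 at -0.061, and with equal weight per cluster Psmg1 was at 0.43, Psmg2 at 0.28 and Psme3 at 0.42. In refed cells Psmg2 (0.75, 0.50 to 1.28), Psmd3 (0.72, 0.51 to 1.06) and Psmg3 (0.52, 0.23 to 0.95) were highest, and Psmd4 (-0.17, -0.34 to -0.01) and Psmb1 (-0.12, -0.23 to -0.02) lowest. Equal weight per cluster gave 0.43 for Psmg2 and 0.15 for Psmd3. With a total free of ribosomal protein and mitochondrial genes, the summed log2 ratio of fasted bone marrow against spleen moved up by 0.13, and 36 members were higher. In fasted cells Psme4 (0.73, 0.17 to 1.48) and Psme1 (0.24, 0.07 to 0.41) were higher and Psmd4 was lower (-0.48, -0.86 to -0.15). Psme4 turned to -0.36 and Psme1 to -0.03 with equal weight per cluster.

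Tumour cells had higher summed levels than spleen cells of the same feeding state, by a log2 ratio of 0.14 (0.10 to 0.19) in ad libitum, 0.22 (0.20 to 0.24) in fasted and 0.27 (0.24 to 0.30) in refed cells. Measured members higher in tumour were 29 (36.4% of all genes), 37 (34.8%) and 37 (39.6%). By more than 25% they were 11 (20.2%), 14 (17.8%) and 18 (20.9%). The ad libitum difference turned to -0.15 with the same weight per cell and to -0.08 without clusters 10 and 11, and it rests on 43 cells. The 11 dendritic cell markers, some of which NK cells share, summed to 337 to 522 CPM in the tumour and 78.3 to 106 CPM in the spleen populations, and their part in the difference was not tested. The fasted and refed differences stayed above 0 under every alternative tried but were 0.04 and 0.08 with equal weight per depth bin. The scaling mattered here. TMM factors moved the summed log2 ratio of tumour against spleen up by 0.22, 0.33 and 0.20 in ad libitum, fasted and refed cells. Members higher by more than 25% were then 26, 36 and 35, and members higher at all 40, 45 and 43. With a total free of ribosomal protein and mitochondrial genes, members higher at all were 36, 43 and 42, and higher by more than 25% they were 22, 24 and 27.

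In fasted tumour against fasted spleen the highest members were Psmg2 (0.81, 0.61 to 1.43), Psme2 (0.74, 0.64 to 0.87) and Psmg1 (0.56, 0.30 to 1.13). The lowest were Psmd5 (-0.32, -0.78 to -0.01), Psmb1 (-0.16, -0.25 to -0.08) and Psmd4 (-0.14, -0.28 to -0.01). Psmb1 and Psmd4 turned to 0.16 and 0.18 under TMM factors, and Psmd5 to 0.47 with equal weight per cluster. In refed cells Psmg2 (0.87, 0.52 to 1.51), Psmb2 (0.71, 0.54 to 0.90) and Psmd3 (0.67, 0.36 to 1.10) were highest, and Psmg2 turned to -0.43 with equal weight per cluster. In ad libitum cells Psmg1 (1.06, 0.55 to 1.92), Psmg2 (0.81, 0.23 to 1.61) and Psmb2 (0.61, 0.36 to 0.87) were highest, and Psmg3 (-0.84, -2.27 to -0.04), Psmd4 (-0.66, -1.09 to -0.31) and Psmd10 (-0.64, -1.46 to -0.06) lowest. Psmg1 and Psmg2 turned to -0.09 and -0.33 with the same weight per cell, Psmg3 to 0.076 with equal weight per cluster and Psmd10 to 0.22 in thinned cells. A single cell gave 38.1% of the 21 Psmg2 UMIs of ad libitum tumour.

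Ad libitum and naive spleen were close. The summed log2 ratio was 0.06 (0.04 to 0.08), 33 of 46 members were higher in ad libitum cells against 48.6% of all genes (38 members under TMM factors), and 0 were higher by more than 25%, against 2.48%. Psme1 (0.14, 0.07 to 0.23), Psmb2 (0.14, 0.01 to 0.29) and Psmc3 (0.14, 0.00 to 0.28) were highest and Psme4 lowest (-0.37, -0.82 to -0.08). With equal weight per cluster Psmb2 and Psmc3 turned to -0.02 and -0.04.

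The summed level was higher in cells with more UMIs. In each population the bin of the deepest cells with 5 or more cells stood above that of the shallowest. In ad libitum spleen it was 4972 CPM in cells under 2000 UMIs, 6979 from 2000 to 4000, 7041 from 4000 to 8000, 7479 from 8000 to 16000 and 9149 above. Within these bins fasted spleen cells stood at 4758, 6281, 6228 and 6670 CPM, below ad libitum cells in each of the 4 bins that both filled, the first within counting error. In bone marrow fasted cells stood at 5224, 6095 and 6745 CPM from 2000 to 16000 UMIs, where ad libitum cells stood at 5744, 7075 and 8102, and above them under 2000 UMIs (4816 against 4446). In tumour fasted and ad libitum cells had 5913 and 4598 CPM from 2000 to 4000 UMIs (9 ad libitum cells) and 8401 and 8352 CPM above 16000. Between these depths fasted cells had less, with 6521 and 7599 CPM from 4000 to 8000 UMIs (4 ad libitum cells) and 7493 and 7612 CPM from 8000 to 16000 (5 ad libitum cells).

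Among the authors' 12 clusters the shallowest had the lowest level and the 2 deepest the highest. Cluster 9, at a median of 1378 UMIs per cell, had 4435 CPM of proteasome genes, cluster 10, at 17293, had 9439, and cluster 11, at 26935.5, had 8432. Cluster 10 also had the most UMIs of the 16 genes of dividing cells, 5971 CPM, where clusters 0 to 5 had between 281 and 869. The next highest was cluster 6, with 3473 CPM of these genes and 5435 CPM of proteasome genes, at a median of 2214.5 UMIs per cell. The part of cell division in the proteasome level of a cluster was not tested. The immunoproteasome share ran from 64.6% in cluster 10 and 66.3% in cluster 11 to 76.7% in cluster 0. The clusters were made from these cells, so these values are a description.

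**Figure D5:**
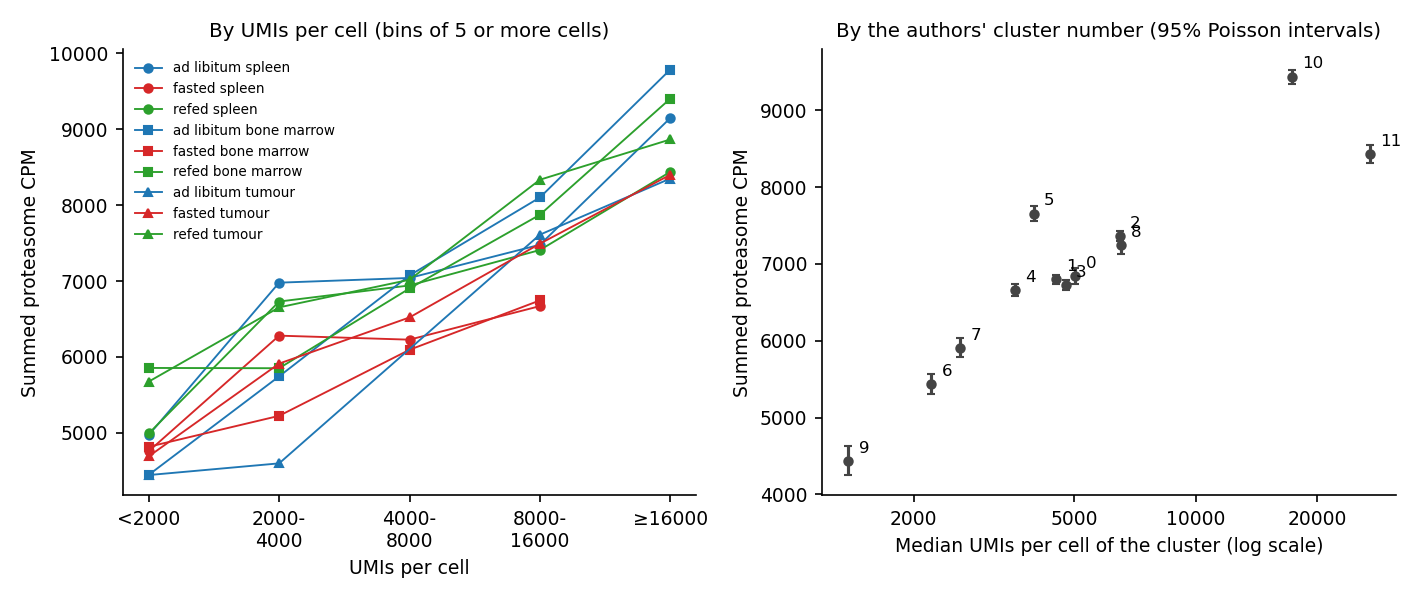
Left: summed level of proteasome genes (CPM) in cells binned by UMIs per cell, for the ad libitum, fasted and refed populations with at least 5 cells in a bin (naive spleen not drawn). Right: the same sum in each cluster against its median UMIs per cell (log scale), with 95% Poisson intervals. The shallowest cells and clusters lie lowest, and the clusters range from 4435 CPM in cluster 9 to 9439 in cluster 10.

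Feeding states also differed within clusters. In the 8 clusters with at least 20 cells of both, the summed log2 ratio of fasted against ad libitum spleen was negative. It ran from -0.28 in cluster 2 (-0.34 to -0.23) to -0.05 in cluster 9. The intervals of cluster 6 (-0.26 to 0.06) and cluster 9 (-0.23 to 0.14) hold 0. In bone marrow the ratio was -0.21 in cluster 2 (-0.28 to -0.14), -0.32 in cluster 6 (-0.52 to -0.12) and -0.40 in cluster 7 (-0.55 to -0.24). Cells of cluster 2 had medians of 5964.5 UMIs in fasted and 7895 in ad libitum bone marrow, so depth differed within clusters too. No cluster held 20 cells of both tumour populations. Fasted bone marrow had 46.7% of its cells in clusters 6, 7 and 9, those with the fewest UMIs per cell, where ad libitum bone marrow had 28.3%. It had 4.17% in clusters 10 and 11, where ad libitum bone marrow had 18.0%. Mitochondrial genes took 12.6% of UMIs in cluster 6 and 8.2% in cluster 9, against 2.30% to 3.85% in the other clusters. Their share was 2.92% in ad libitum, 3.17% in fasted and 3.28% in refed spleen. The same 3 values were 4.19%, 4.47% and 4.32% for bone marrow, and 2.27%, 2.54% and 2.62% for tumour. It was thus higher in fasted than ad libitum cells of each tissue, and its part in the results was not tested.

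Other gene lists give the setting. Another list mixed proteasome subunits, partner proteins and regulators of proteasome genes, all without a Psm name. Of its 10 measured genes, 6, 7 and 7 were lower in fasted than ad libitum spleen, bone marrow and tumour. Of all genes 52.0%, 51.3% and 46.2% were lower, so the spleen count is near that share. Pomp, the maturation factor of the core, was at 280, 241 and 287 CPM in ad libitum, fasted and refed spleen, 349, 211 and 337 in bone marrow and 353, 299 and 386 in tumour, lowest in the fasted population of each. Shfm1, a small subunit of the cap, was at 497 and 432 CPM in ad libitum and fasted spleen, 505 and 367 in bone marrow and 522 and 437 in tumour. Nuclear genes of oxidative phosphorylation, which make ATP in mitochondria, were lower in 75, 71 and 58 of 81 cases, with medians of -0.21, -0.42 and -0.13. Lower levels in fasted cells were therefore not particular to proteasome genes. Genes of cytosolic ribosomal proteins were lower in 19, 34 and 16 of 81 cases. Genes of dividing cells were lower in 15 of 15 cases in each tissue, with medians of -0.77, -1.14 and -1.14, so fewer dividing cells and less RNA per cell cannot be told apart from a shift of proteasome genes within cells.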

How the data were processed

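Single-cell RNA was sequenced from 1 droplet lane of hashtagged NK cells. The deposited matrix holds UMI counts per cell and gene; per the labels' protocols the authors built it with seqc, on mm10 per the submitters' processing notes, with filters not given in the sources used here. Population and doublet calls and clusters were taken as deposited: of 13085 classified cells 5606 were doublets, which were left out with 33 unclassified cells. Columns with 1 symbol were summed.

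Cells in Leiden clusters (scanpy 1.11.5) that resembled T cells or monocytes and macrophages by fixed markers were left out. UMIs were summed per population (546428 to 8668093) and scaled to CPM. A gene's log2 ratio used CPM + 5, with an exact binomial 95% interval of the ratio without the added 5; the summed ratio added nothing. Sums have Poisson intervals and shares exact (Clopper-Pearson) ones; share differences combine both bounds. Intervals were checked only on simulated independent Poisson counts, so this check does not cover differences between cells of a population. A count of 0 was read as up to 3 counts.

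Values are given for the 6 catalytic genes and Psme1 to Psme3. In each comparison the 3 measured members at either end whose interval leaves out 0 are named, and of other lists up to 4 members with the highest mean CPM. Psmb1, Psma8, Psmb11 and members with opposite signs between tissues were added after their values were seen. Members and lists were chosen with earlier results of these data known.

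Alternatives were TMM factors (edgeR 4.0.16), other totals, cell weights, thinning, cell and level minimums, and pseudocounts. Equal weight per depth bin, and leaving out clusters 6, 7 and 9 or 10 and 11, were chosen after seeing the data.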

Additional observations from a re-analysis of the deposited data

Results flagged for a closer look

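For 2 members the fasted and ad libitum populations differed in opposite directions in different tissues, with intervals that leave out 0. Psmb10 had a log2 ratio of -0.29 in spleen (-0.39 to -0.20) and 0.28 in tumour (0.01 to 0.58). It stayed negative in spleen and positive in tumour under every alternative tried, at 0.10 in tumour without clusters 10 and 11. Psmd4 had a log2 ratio of -0.43 in bone marrow (-0.81 to -0.09) and 0.49 in tumour (0.13 to 0.92), and kept both signs under every alternative tried. The difference between tissues was not tested. The tumour values rest on 43 ad libitum cells, with 114 UMIs of Psmb10 and 59 of Psmd4.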

How the results depend on the processing

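The 13 comparisons were recomputed under each alternative. The summed log2 ratio kept its direction in 141 of 156 cases, the difference in immunoproteasome share in 100 of 117 and the ratios of named genes in 714 of 741. The cause of a change was not tested beyond what an alternative leaves out by construction. No paired analysis was possible because each population is 1 sample and the labels number no replicates. AL stands for ad libitum, marrow for bone marrow, and each value gives the first population over the second. With TMM factors, the summed log2 ratio was -0.25 for fasted over AL spleen, -0.48 for fasted over AL marrow, -0.065 for fasted over AL tumour, 0.24 for refed over fasted spleen, 0.48 for refed over fasted marrow, 0.16 for refed over fasted tumour, 0.087 for AL over naive spleen, 0.24 for AL marrow over spleen, 0.25 for refed marrow over spleen, 0.36 for AL tumour over spleen, 0.55 for fasted tumour over spleen, 0.47 for refed tumour over spleen. Single genes were at 0.16 for Psmb1 in fasted tumour over spleen, 0.18 for Psmd4 in fasted tumour over spleen. With a total free of ribosomal protein and mitochondrial genes, the summed log2 ratio was -0.18 for fasted over AL spleen, -0.072 for fasted over AL tumour, 0.19 for refed over fasted spleen, 0.16 for refed over fasted tumour, 0.34 for AL marrow over spleen, 0.14 for fasted marrow over spleen, 0.32 for refed marrow over spleen, 0.27 for AL tumour over spleen, 0.38 for fasted tumour over spleen, 0.35 for refed tumour over spleen. Among named genes the ratio was 0.0075 for Psmd4 in fasted tumour over spleen. With all singlets kept, the summed log2 ratio was 0.19 for AL marrow over spleen, 0.17 for refed marrow over spleen, 0.25 for fasted tumour over spleen. With the same weight per cell, the summed log2 ratio was -0.18 for fasted over AL spleen, 0.066 for fasted over AL tumour, 0.14 for refed over fasted spleen, 0.073 for AL marrow over spleen, -0.11 for fasted marrow over spleen, 0.11 for refed marrow over spleen, -0.15 for AL tumour over spleen, 0.094 for fasted tumour over spleen, 0.19 for refed tumour over spleen. The immunoproteasome share differed, in points, by 0.358 for refed over fasted spleen, -5.7 for refed over fasted tumour, -2.73 for AL marrow over spleen, -2.57 for refed marrow over spleen, 2.78 for fasted tumour over spleen. Single genes were at 0.15 for Psmg1 in fasted over AL tumour, -0.088 for Psmg1 in AL tumour over spleen, -0.33 for Psmg2 in AL tumour over spleen. With cells thinned to 1500 UMIs, the summed log2 ratio was -0.34 for fasted over AL marrow, -0.012 for fasted over AL tumour, 0.12 for refed over fasted spleen, 0.12 for refed over fasted tumour, 0.043 for AL marrow over spleen, -0.10 for fasted marrow over spleen, 0.14 for refed marrow over spleen, -0.076 for AL tumour over spleen, 0.11 for fasted tumour over spleen, 0.10 for refed tumour over spleen. The immunoproteasome share differed, in points, by -3.21 for fasted over AL marrow, 3.95 for refed over fasted marrow, 0.174 for refed over fasted tumour, -1.9 for AL marrow over spleen, -6.09 for fasted marrow over spleen, -1.51 for refed marrow over spleen, 2.91 for AL tumour over spleen, 1.76 for fasted tumour over spleen, 2.55 for refed tumour over spleen. Among named genes the ratio was 0.35 for Psmd6 in fasted over AL tumour, -0.44 for Psmc6 in refed over fasted tumour, 0.22 for Psmd10 in AL tumour over spleen. With equal weight per cluster, the summed log2 ratio was -0.23 for fasted over AL spleen, -0.29 for fasted over AL marrow, 0.19 for refed over fasted spleen, 0.27 for refed over fasted marrow, 0.26 for refed over fasted tumour, 0.053 for AL marrow over spleen, 0.091 for fasted marrow over spleen, 0.12 for refed marrow over spleen, -0.053 for AL tumour over spleen, 0.14 for fasted tumour over spleen, 0.19 for refed tumour over spleen. The immunoproteasome share differed, in points, by -6.97 for fasted over AL tumour, -2.8 for AL marrow over spleen, 6.6 for AL tumour over spleen. Named members stood at -0.022 for Psmb2 in AL over naive spleen, -0.042 for Psmc3 in AL over naive spleen, -0.36 for Psme4 in fasted marrow over spleen, -0.029 for Psme1 in fasted marrow over spleen, 0.076 for Psmg3 in AL tumour over spleen, -2.67 for Psmg1 in AL tumour over spleen, -2.67 for Psmg2 in AL tumour over spleen, 0.47 for Psmd5 in fasted tumour over spleen, -0.43 for Psmg2 in refed tumour over spleen. Without the highest cell of each gene, the summed log2 ratio was -0.45 for fasted over AL marrow, -0.050 for fasted over AL tumour, -0.040 for fasted marrow over spleen, 0.063 for AL tumour over spleen, 0.23 for refed tumour over spleen. With equal weight per depth bin, the summed log2 ratio was -0.15 for fasted over AL spleen, -0.15 for fasted over AL marrow, 0.084 for fasted over AL tumour, 0.12 for refed over fasted spleen, 0.21 for refed over fasted marrow, 0.15 for refed over fasted tumour, 0.013 for AL over naive spleen, -0.019 for AL marrow over spleen, -0.065 for fasted marrow over spleen, 0.056 for refed marrow over spleen, -0.19 for AL tumour over spleen, 0.040 for fasted tumour over spleen, 0.083 for refed tumour over spleen. The immunoproteasome share differed, in points, by -6.87 for refed over fasted tumour, -2.32 for AL marrow over spleen, -1.4 for refed marrow over spleen, 1.45 for fasted tumour over spleen. Among named genes the ratio was 0.29 for Psmg1 in fasted over AL tumour, 0.42 for Psmd6 in fasted over AL tumour, -0.023 for Psmc3 in AL over naive spleen, -0.41 for Psmg1 in AL tumour over spleen, -0.45 for Psmg2 in AL tumour over spleen. Without clusters 6, 7 and 9, the summed log2 ratio was 0.26 for AL marrow over spleen, 0.086 for fasted marrow over spleen, 0.25 for refed marrow over spleen. Without clusters 10 and 11, the summed log2 ratio was -0.25 for fasted over AL marrow, 0.029 for fasted over AL tumour, 0.14 for refed over fasted spleen, 0.23 for refed over fasted marrow, 0.039 for AL marrow over spleen, 0.063 for refed marrow over spleen, -0.079 for AL tumour over spleen, 0.14 for fasted tumour over spleen, 0.18 for refed tumour over spleen. The immunoproteasome share differed, in points, by 0.00226 for refed over fasted marrow, -1.96 for AL marrow over spleen, -0.355 for refed marrow over spleen, 1.34 for AL tumour over spleen, 1.57 for fasted tumour over spleen. Single genes were at 0.50 for Psmg1 in fasted over AL tumour, 0.38 for Psmd6 in fasted over AL tumour, -0.26 for Psmg1 in AL tumour over spleen, -0.032 for Psmg2 in refed tumour over spleen. Members past the fold minimum (20% lower or 25% higher) changed most with scaling and pseudocount. With TMM factors they were 11 instead of 7 for fasted over AL spleen, 6 instead of 11 for fasted over AL tumour, 8 instead of 5 for refed over fasted spleen and 10 instead of 16 for refed over fasted tumour. For tumour over spleen they were 26, 36 and 35 instead of 11, 14 and 18 in AL, fasted and refed cells. With a total free of ribosomal protein and mitochondrial genes they were 7 for fasted over AL tumour, 10 for refed over fasted tumour, 27 instead of 16 for AL marrow over spleen, 10 instead of 4 for fasted marrow over spleen, and 22 and 24 for AL and fasted tumour over spleen. With a pseudocount of 20 CPM they were 3 for fasted over AL spleen, 7 for fasted over AL tumour, 2 for refed over fasted spleen, 10 for refed over fasted tumour, 1 for fasted marrow over spleen and 8 for fasted tumour over spleen. With a minimum of 50 CPM they were 6, 3 and 1 for fasted over AL tumour, refed over fasted spleen and fasted marrow over spleen. Equal weight per cluster used 1 cluster for AL tumour over spleen and 2 for fasted over AL tumour, which held 55.8% of AL and 13.2% of fasted tumour cells. Fasted marrow (120 cells), AL tumour (43) and refed tumour (91) limit all values that use them, and members under 30 CPM rest there on few UMIs.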

Other observations

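Genes of antigen presentation and of interferon responses, which share regulation with the immunoproteasome, were compared in the same way. Of 14 measured genes of MHC class I antigen processing, 10 were lower in fasted than ad libitum spleen, 7 in bone marrow and 5 in tumour, where 52.0%, 51.3% and 46.2% of all measured genes were lower. The bone marrow count is at about that share. H2-K1, a classical class I heavy chain, was at 3498 CPM in ad libitum and 3111 in fasted spleen, 2956 and 3028 in bone marrow and 2386 and 2881 in tumour. Of 16 interferon-induced genes, 10, 6 and 3 were lower in the fasted population against the same shares of all genes, and 16 of 16 were higher in tumour than in spleen in each feeding state, where 36.4%, 34.8% and 39.6% of all genes were higher in ad libitum, fasted and refed cells. Of 14 measured autophagy genes, the other main route of protein degradation, 5, 6 and 4 were lower in fasted cells. Of 12 ubiquitin genes, 7, 8 and 6 were lower, and the counts of 7 and 6 are near the 52.0% and 46.2% of all genes.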
